A study of Caenorhabditis elegans with 2 samples.

Results

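The genes described here encode cathepsin B-like cysteine proteases (cpr), aspartyl proteases (asp), lysozymes of the protist type (lys) and of the invertebrate type (ilys), and saposin-like proteins (spp) of Caenorhabditis elegans. They were chosen by symbol from the Ensembl annotation of WBcel235, as protein-coding genes named with one of these prefixes and a number. That gave 72 genes among 19973 protein-coding genes on the 6 chromosomes, made up of 8 cpr, 17 asp, 10 lys, 6 ilys and 31 spp genes. The rule uses no measured value, though the families were picked with earlier results of these data known. Whether each gene is expressed in the gut was not measured here.

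The data were lists of genomic regions from chromatin immunoprecipitation and sequencing of the nuclear hormone receptor NHR-28 fused to eGFP, in whole larvae of stage L4. There was 1 group of 2 biological replicates, of strain OP317, which carries the integrated transgene wgIs317 for the tagged receptor and the mutation unc-119(ed3) on chromosome III, and both sexes were pooled. The antibody field names nhr-28, whereas the description names the eGFP fusion, and no sample without the transgene was analysed here. The age of the animals is given as unknown. Each replicate list held 30000 regions and the list from the pooled alignments 29697. The authors derived from these an optimal set of 8745 reproducible regions by the irreproducible discovery rate (IDR) procedure. Read depth is unknown. In whole animals, binding in a few cells and weaker binding in many cells cannot be told apart.

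As background, the worm intestine is a single tube of cells that digests bacteria and also defends against them. Cathepsin-like proteases act in the acid gut lumen and in lysosomes. Lysozymes cleave bacterial cell walls, and saposin-like proteins of the caenopore type form pores in bacterial membranes. Transcription of many intestinal genes depends on GATA factors, above all ELT-2, which binds sequences of the form TGATAA. Nuclear hormone receptors such as NHR-28 are transcription factors with a zinc-finger DNA-binding domain, many of which respond to small lipophilic molecules. The location of their regions says where the tagged receptor was recovered with the DNA, and not whether a gene was switched on or off.

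A region was assigned to a gene where its summit lay in a promoter, meaning the stretch that begins 1000 bp before a transcription start site (TSS) of the gene and ends 200 bp after it. The signal of a region is the authors' own value on a scale that the labels leave open, and is used to rank and describe regions within a list.

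The sequences around the 6 highest summits of these genes are shown because 5 of them hold the motif found at most summits of these genes. They were picked by signal. Each line gives 101 bases centred on a summit, 5′ to 3′ on the strand of the gene, read from the RefSeq genome of WBcel235 (ce11). Capitals mark TGATAA or its reverse complement, searched on both strands.
cpr-9: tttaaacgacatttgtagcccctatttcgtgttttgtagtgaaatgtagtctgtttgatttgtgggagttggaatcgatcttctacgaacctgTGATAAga
cpr-3: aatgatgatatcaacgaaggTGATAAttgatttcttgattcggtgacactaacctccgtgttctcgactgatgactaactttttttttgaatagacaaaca
spp-8: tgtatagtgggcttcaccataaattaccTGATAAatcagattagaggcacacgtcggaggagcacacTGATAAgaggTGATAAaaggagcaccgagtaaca
lys-8: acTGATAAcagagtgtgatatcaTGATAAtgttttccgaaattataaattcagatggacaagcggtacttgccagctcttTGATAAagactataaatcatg
cpr-4: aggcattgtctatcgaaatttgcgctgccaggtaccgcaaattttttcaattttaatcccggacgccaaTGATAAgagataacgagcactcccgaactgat
asp-9: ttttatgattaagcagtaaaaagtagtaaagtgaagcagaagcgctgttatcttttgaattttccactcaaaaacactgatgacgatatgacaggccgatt
They lie at chrV:12002296-12002396 (plus strand, cpr-9), chrV:15298745-15298845 (minus strand, cpr-3), chrIV:8481467-8481567 (plus strand, spp-8), chrII:5585953-5586053 (plus strand, lys-8), chrV:6614532-6614632 (plus strand, cpr-4) and chrIV:6185717-6185817 (plus strand, asp-9). The windows of spp-8 and lys-8 hold 3 matches each, those of cpr-9, cpr-3 and cpr-4 hold 1 each, and that of asp-9 holds 0.

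Protease, lysozyme and saposin-like genes had an optimal promoter summit in 30 of 72 cases (41.7%), against 24.8% of all protein-coding genes. Counts differed between families, some of which are small. Among cpr genes 5 of 8 had a summit (62.5%), among asp genes 9 of 17 (52.9%), among lys genes 4 of 10 (40%) and among spp genes 12 of 31 (38.7%). None of the 6 ilys genes had one, but 3 of them did with a promoter of 2000 bp upstream to 500 bp downstream (31.5% of all genes). These are counts of genes that share ancestry and often a neighbourhood, with no replicate groups to compare, so no test was made between families. The excess over all genes was seen with other rules too. With a promoter of 500 bp upstream to 100 bp downstream, 25 members had a summit, against 19.7% of all genes, and with 2000 bp upstream to 500 bp downstream 40 did, against 31.5%. Among the 4372 optimal regions of highest signal, 21 members had one (13.7% of all genes). Giving each summit to the nearest TSS alone left 27 (20.9% of all genes). Any overlap of a region with the promoter gave 33 (26.1% of all genes), and all pooled regions at the maximal −log10 q gave 33 (28.6% of all genes). The top 8745 regions of replicate 2 alone gave 32 (24.6% of all genes), and those of replicate 1 alone gave 32 (24.5% of all genes).

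**Figure D1:**
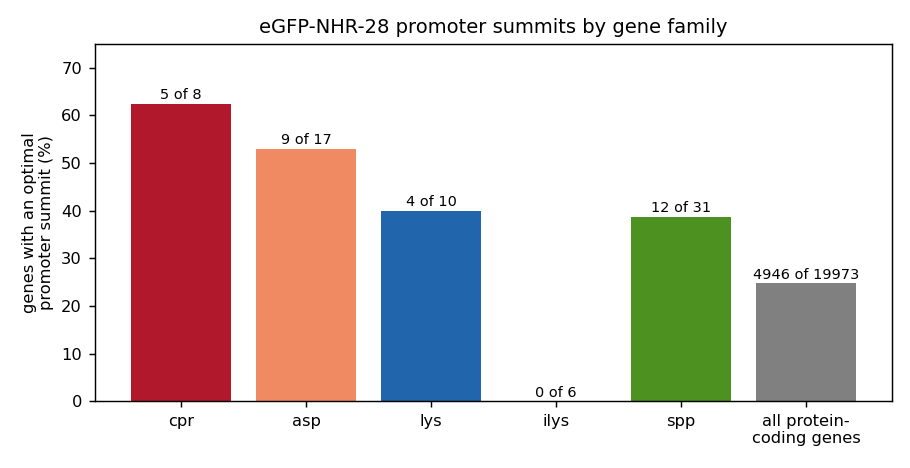
Percentage of genes of each family with an optimal eGFP-NHR-28 promoter summit, with all protein-coding genes at the right in grey; numbers over the bars are counts of genes. The cpr bar is highest at 62.5% and the ilys bar is at 0, against 24.8% for all protein-coding genes.

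Signal also differed between families. Over the genes with a summit, the median of the highest promoter signal was 232 in cpr genes, 119 in lys genes, 101 in asp genes and 69.2 in spp genes, against 78.8 in all genes with a summit. The spp median was the only one of these 4 below that of all genes, but it was above it in the narrower promoter that ends 500 bp upstream (83.9, against 77.9 in all genes). The cpr median was 103 in that window and with the nearest TSS alone, since the strongest cpr-9 summit is then not counted. The order of families then changed. In the narrower promoter cpr lay below lys (119) and asp (116), and with the nearest TSS alone it lay below lys (119) and above asp (95.1). Over the 30 genes together the median was 101, and 21 of them lay above the median of all genes. The range within families was wide, from 96.6 to 465 in cpr, 44.3 to 140.5 in asp, 87.5 to 239 in lys and 49.5 to 302 in spp genes.

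**Figure D2:**
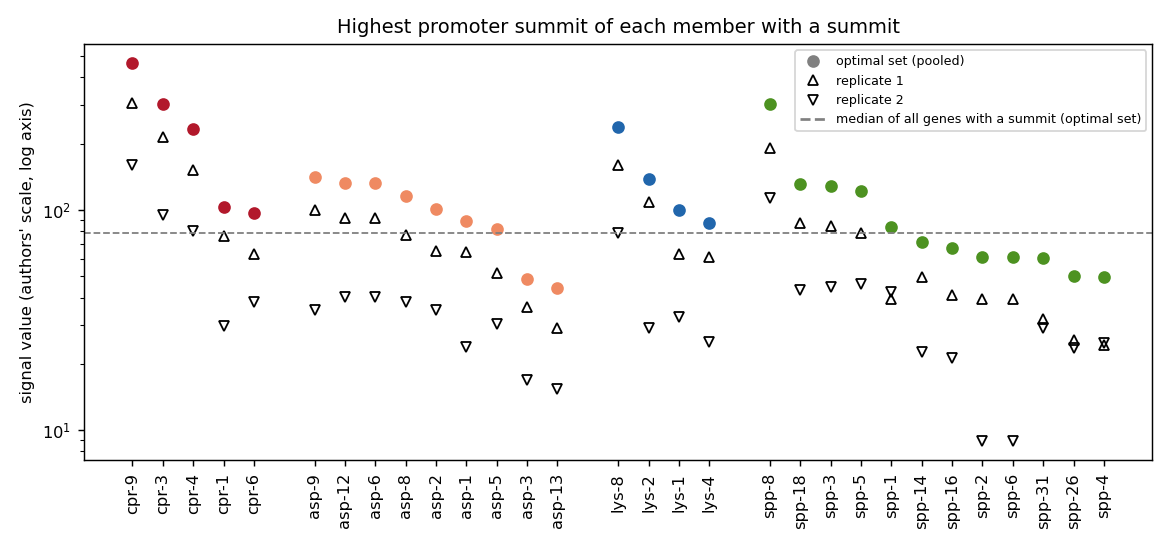
Signal value (log axis, authors' scale) of the highest promoter summit of each of the 30 genes with a summit, ordered by signal within the cpr, asp, lys and spp families. Filled points are the optimal set, upward triangles the region over that summit in replicate 1 and downward triangles that in replicate 2, and the dashed line is the median of all genes with a summit (78.8, optimal set). The cpr points all lie above the line, and replicate 2 of spp-2 and spp-6, which share a summit, lies lowest.

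The highest region of these families lay in the promoter of a cathepsin B-like gene. Other cpr genes overlapped in signal with other families, with cpr-3 (304) close to spp-8 (302) and cpr-4 (232) under lys-8 (239). The region of highest signal was that of cpr-9, at chrV:12002112-12002540, with a signal of 465 (rank 45 of 8745), and with 305 in replicate 1 and 160 in replicate 2. Its ranks in the replicate lists were 37 and 78. It lay in intergenic sequence 707 bp upstream of the TSS of cpr-9 and 549 bp upstream of that of gcy-33, a guanylate cyclase gene. It therefore cannot be given to cpr-9 alone. A second, weaker summit of cpr-9 lay 2 bp upstream of its TSS (signal 80.2, with 58.8 in replicate 1 and 33.3 in replicate 2).

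The next cpr genes had single summits close to the TSS. The summit of cpr-3 lay 95 bp upstream (chrV:15298647-15298970, signal 304, rank 206), with 215 in replicate 1 and 94.4 in replicate 2. That of cpr-4 lay 92 bp upstream (chrV:6614439-6614705, signal 232, rank 447), with 151 in replicate 1 and 80.2 in replicate 2. Both were in intergenic sequence and in no other promoter. The summit of cpr-1 (103) lay 110 bp upstream, in an exon of the non-coding RNA gene C52E4.17, and that of cpr-6 (96.6) lay 56 bp upstream. No optimal promoter summit was found for cpr-2, cpr-5 and cpr-8. The divergent neighbours cpr-5 and cpr-8 are separated by 565 bp, and the nearest optimal summit (85.8) lay inside cpr-5, 637 bp downstream of its TSS and 1203 bp upstream of that of cpr-8.

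Aspartyl protease genes had a summit more often than all genes, at moderate signal. The highest was that of asp-9, 122 bp upstream of its TSS (chrIV:6185689-6185849, signal 140.5, rank 1488), with 100.1 in replicate 1 and 35.1 in replicate 2. Its rank in replicate 2, 3297, was further down than in replicate 1, 1096. A single summit (chrV:8269037-8269156, signal 133, rank 1668) served the divergent genes asp-6 and asp-12, 181 bp upstream of asp-6 and 92 bp upstream of asp-12. It had 92.3 in replicate 1 and 40.1 in replicate 2. The others were asp-8 (116), asp-2 (101.0), asp-1 (89.1), asp-5 (81.7), asp-3 (48.5) and asp-13 (44.3). Most lay 92 to 181 bp upstream. The exceptions were asp-1, whose summit was 868 bp upstream, and asp-3, a cathepsin D-like gene known for its part in necrotic neuron death, whose summit was 109 bp downstream in its 5′ UTR. The lysosomal asp-4, which acts in the same process, had no optimal region, but a pooled region 128 bp upstream of its TSS had the maximal −log10 q and a signal of 32.7, just under the lowest signal of the optimal set, 36.2. No optimal promoter summit was found for asp-7, asp-14, asp-15, asp-16, asp-17, asp-18 and asp-19 either.

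Lysozyme genes of the protist type had summits at lys-8, lys-2, lys-1 and lys-4. That of lys-8, a gene known for its induction on pathogens, was the strongest, 175 bp upstream (chrII:5585839-5586120, signal 239, rank 419), with 160 in replicate 1 and 78.8 in replicate 2. It lay in an exon of the non-coding RNA gene C17G10.12. The summit of lys-2 lay 80 bp upstream (chrV:10281379-10281728, signal 138, rank 1536). Its replicate values were further apart in rank than those of lys-8, with 109 (rank 913) in replicate 1 and 29.0 (rank 4313) in replicate 2. The summit of lys-1 (100.3) lay 160 bp upstream. In front of lys-4 there were 2 summits, 790 bp (87.5) and 50 bp (59.2) upstream.

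The lysozyme gene lys-7, which is needed for normal resistance to several bacteria, had a region in each replicate but none in the joint lists. Neither the optimal nor the pooled list held a region in its promoter, and the nearest optimal summit was 13931 bp from its TSS. Both replicate lists did hold one, however. In replicate 1 it spanned chrV:3482600-3482949 with a signal of 93.6 (rank 1279) and a summit 175 bp upstream of the TSS, and in replicate 2 it spanned chrV:3482598-3482937 with a signal of 42.9 (rank 2445) and a summit 168 bp upstream. These ranks were above those of lys-1 in both lists (2753 and 3639). A weaker case was asp-7, with 41.2 (rank 4993) in replicate 1 and 14.8 (rank 8619) in replicate 2, 69 and 120 bp upstream. Counting in each replicate list its top 8745 regions, these were the only 2 of the 42 members without an optimal promoter summit (4.76%) that had a top promoter summit in both replicates, against 44 of 15027 such protein-coding genes (0.293%). Of those 44 genes, 16 had no promoter summit at all in the pooled list, and lys-7 and asp-7 were among them. Why the pooled list lacks such regions was not tested.

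Lysozyme genes of the invertebrate type, relatives of the destabilases of leeches, had no optimal promoter summit. In the pooled list ilys-3, known for its role in digesting bacteria, had a region 877 bp upstream (29.5, with 17.4 in replicate 1 and 12.3 in replicate 2), at the maximal −log10 q but below the optimal set. The best promoter summit of ilys-5 was at 19.7 in the pooled list and that of ilys-2 at 6.79, and ilys-1, ilys-4 and ilys-6 had none there. Optimal summits lay beyond the window, 1100 bp upstream of ilys-4 (88.5), 1233 bp upstream of ilys-2 (121) and 1488 bp upstream of ilys-5 (46.2). The one near ilys-2 lay between ilys-3 and ilys-2. Among protist-type genes lys-3, lys-5, lys-6, lys-9 and lys-10 also lacked an optimal summit.

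Saposin-like genes were the largest family and ranged from strong regions to no region. The highest was spp-8, 147 bp upstream (chrIV:8481381-8481652, signal 302, rank 210), with 190 (rank 182) in replicate 1 and 113 (rank 265) in replicate 2. Its signal was more than that of any asp or lys gene. After it came spp-18 (131), spp-3 (129) and spp-5 (122), which encodes the pore-forming caenopore-5. Their summits lay 75, 162 and 153 bp upstream. The summit of spp-1, which encodes another antibacterial caenopore, had a signal of 83.9 and lay 6 bp downstream of the TSS, in the 5′ UTR. The remaining ones were spp-14 (71.2, in an exon of the non-coding RNA gene K09F5.9), spp-16 (67.1), spp-2 and spp-6 (61.3 each, a single shared summit), spp-31 (60.7), spp-26 (50.1) and spp-4 (49.5). The summit counted for spp-26 lay 631 bp upstream, in an intron of the potassium channel gene twk-10 and only 59 bp upstream of a TSS of that gene.

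The other 19 spp genes had no optimal promoter summit. They were spp-7, spp-9, spp-10, spp-11, spp-12, spp-13, spp-15, spp-17, spp-19, spp-20, spp-21, spp-22, spp-23, spp-24, spp-25, spp-27, spp-28, spp-29 and spp-30. Of these spp-25 had a pooled region at the maximal −log10 q, 48 bp upstream (32.8, with 19.5 in replicate 1 and 11.4 in replicate 2). The prosaposin-like gene spp-10, next to spp-8, had at most 14.8 in the pooled list. Its nearest optimal summit lay 1735 bp upstream (141).

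At the edges of the promoter window, asp-1 was the member farthest upstream within it (868 bp, 89.1) and asp-3 the one farthest downstream (109 bp, 48.5). Just outside lay the summits near asp-7 (1060 bp upstream and inside the neighbour asp-8, 40.3) and ilys-4 (1100 bp, 88.5). Also outside was that of spp-28 (at -1114 bp, with minus meaning upstream, 57.5), which also had one 471 bp downstream of its TSS (36.3). At the lower edge of the optimal set, asp-13 was the weakest member within it (44.3), and spp-25, asp-4 and ilys-3 lay under it.

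Summits of these genes sat close to the TSS. For the 30 genes, the highest summit lay at a median of -150 bp, where a minus sign means upstream, against -214 bp for all genes with a summit. It lay within the 300 bp upstream of the TSS in 22 of 30 genes (73.3%), against 55.1% of all genes with a summit. By family this held for 4 of 5 cpr, 7 of 9 asp, 3 of 4 lys and 8 of 12 spp genes. Many worm messages are trans-spliced, so an annotated TSS may lie downstream of the place where transcription starts.

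**Figure D3:**
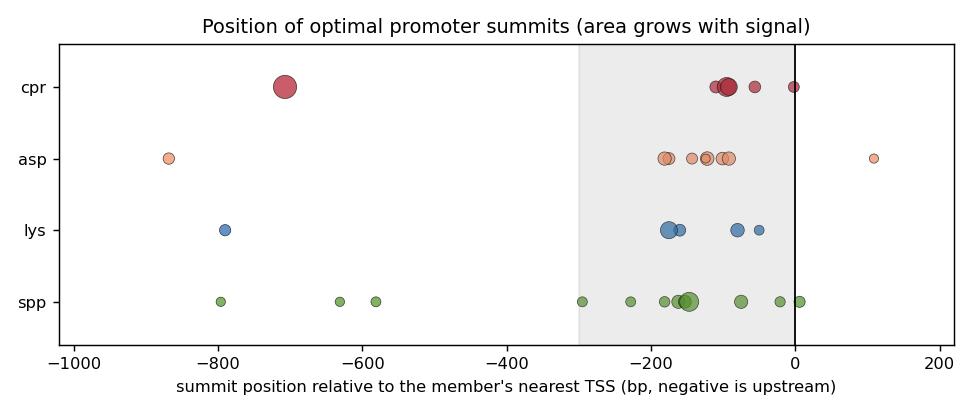
Position in bp of each optimal promoter summit relative to the nearest TSS of the cpr, asp, lys or spp gene, with negative values upstream, the vertical line at the TSS and the 300 bp upstream shaded. Point area grows with signal; most points lie in the shaded stretch, and the largest, that of cpr-9, lies at -707 bp.

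Both replicates held these regions. The 30 genes corresponded to 30 distinct summits, because cpr-9 and lys-4 had 2 each and 2 pairs of genes shared one. That is 2 of 72 members with more than 1 summit, against 2.59% of all genes. All 30 summits were covered by a region in both replicate lists (98.1% of all optimal promoter summits were), and for 29 of them that region was among the top 8745 of both lists, against 80.2% of all optimal promoter summits. The exception was the summit shared by spp-2 and spp-6, with a signal of 39.5 (rank 5229) in replicate 1 and 8.90 (rank 12567) in replicate 2. Replicate 2 had a stronger promoter region for these genes (24.4) that did not cover that summit. The signal was higher in replicate 1 at 28 of 30 summits, against 4032 of the 4556 optimal promoter summits with a region in both lists, with a median ratio of replicate 1 to replicate 2 of 1.93, against 1.61 over all optimal promoter summits. The exceptions were spp-1 (39.2 in replicate 1 and 42.2 in replicate 2) and spp-4 (24.33 in replicate 1 and 24.97 in replicate 2). The lists are not known to share a scale, so the ratio is not a change. The optimal set was derived from these same lists, so these shares do not measure agreement independently.

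A GATA sequence was present at most of these summits. TGATAA, on either strand, occurred within 50 bp of 24 of 30 summits (80.0%, Wilson 95% interval 62.7 to 90.5), against 32.2% of all optimal promoter summits. All 6 cpr summits had it, as did 7 of 8 asp, 3 of 5 lys and 8 of 11 spp summits. Those without TGATAA were the summits of asp-9, lys-2, spp-1, spp-14 and spp-26 and the weaker summit of lys-4. Only this exact sequence was searched, so these windows may hold other GATA sequences. The asp-9 window, for one, holds AGATAA on the other strand. The family counts depended on the window. Within 25 bp they were 3 of 6 cpr, 5 of 8 asp, 0 of 5 lys and 7 of 11 spp summits, against 18.8% of all optimal promoter summits. The interval covers counting only, and summits of related genes are not independent. A match describes the sequence and does not show that a factor was bound there.

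**Figure D4:**
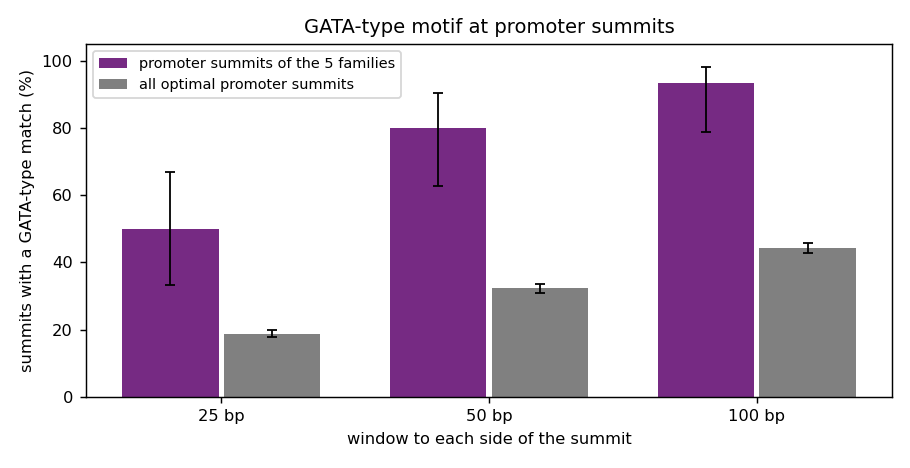
Percentage of optimal promoter summits with TGATAA on either strand within 25, 50 or 100 bp to each side, for the 5 families (purple) and for all optimal promoter summits (grey). Error bars are Wilson 95% intervals; the purple bars stand at 50%, 80.0% and 93.3% and the grey bars at 18.8%, 32.2% and 44.3%.

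The sequence was also frequent in promoters of these genes irrespective of a summit. In the 300 bp upstream of the first TSS, TGATAA was found in 50 of 72 members (69.4%), against 30.8% of all protein-coding genes. It was there in 25 of the 30 members with a summit (83.3%; 1977 of 4946 among all genes with a summit) and in 25 of the 42 without (59.5%; 27.7% of all genes without a summit). All 6 lys genes without a summit had it, as did 2 of the 6 ilys genes. So a GATA sequence in the proximal promoter was found in members with and without an optimal promoter summit.

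Other motifs were rare. The E-box CACGTG, the core of sites for the lysosomal regulator HLH-30, was within 50 bp of 3 of 30 summits (10%, those of cpr-1 and spp-18 and the stronger one of lys-4), against 4.63% of all optimal promoter summits. AGGTCA, a half-site bound by many nuclear receptors, was found at 0 of 30 (Wilson 95% upper bound 11.4%), against 4.18%. The absence of these letters from a window says nothing of whether NHR-28 touched the DNA there.

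The count of members with a summit varied by chromosome. Chromosome V held 31 members, of which 15 had a summit, against 23.2% of all genes there. X held 16, of which 8 had one (28.4% of all genes there), and IV held 15, of which 5 had one (22.0% of all genes there). On chromosome I none of 5 members had a summit, though 26.3% of all genes there did. On II 1 of 3 had one (23.3% of all genes there) and on III 1 of 2 (27.5% of all genes there).

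Many members stood next to each other, and neighbours differed in some clusters. With a spacing of at most 10 kb, 37 members fell into 13 clusters, and 15 of these members had a summit. So did 15 of the 35 members outside clusters, against 24.8% of all protein-coding genes. All 5 genes of the cluster spp-2 to spp-6 on X, which spans 5.39 kb, had a summit, as did asp-6, asp-12 and asp-5, which lie within 6.53 kb on V. In the cluster lys-1, lys-2 and lys-3, only lys-3 had none, and asp-1 had one 868 bp upstream while its relatives asp-15, asp-16 and asp-17 had none. The cluster of spp-19, spp-20, spp-26 and spp-27 had the 1 summit shared with twk-10. In 5 clusters, among them ilys-1 to ilys-3, no member had one.

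**Figure D5:**
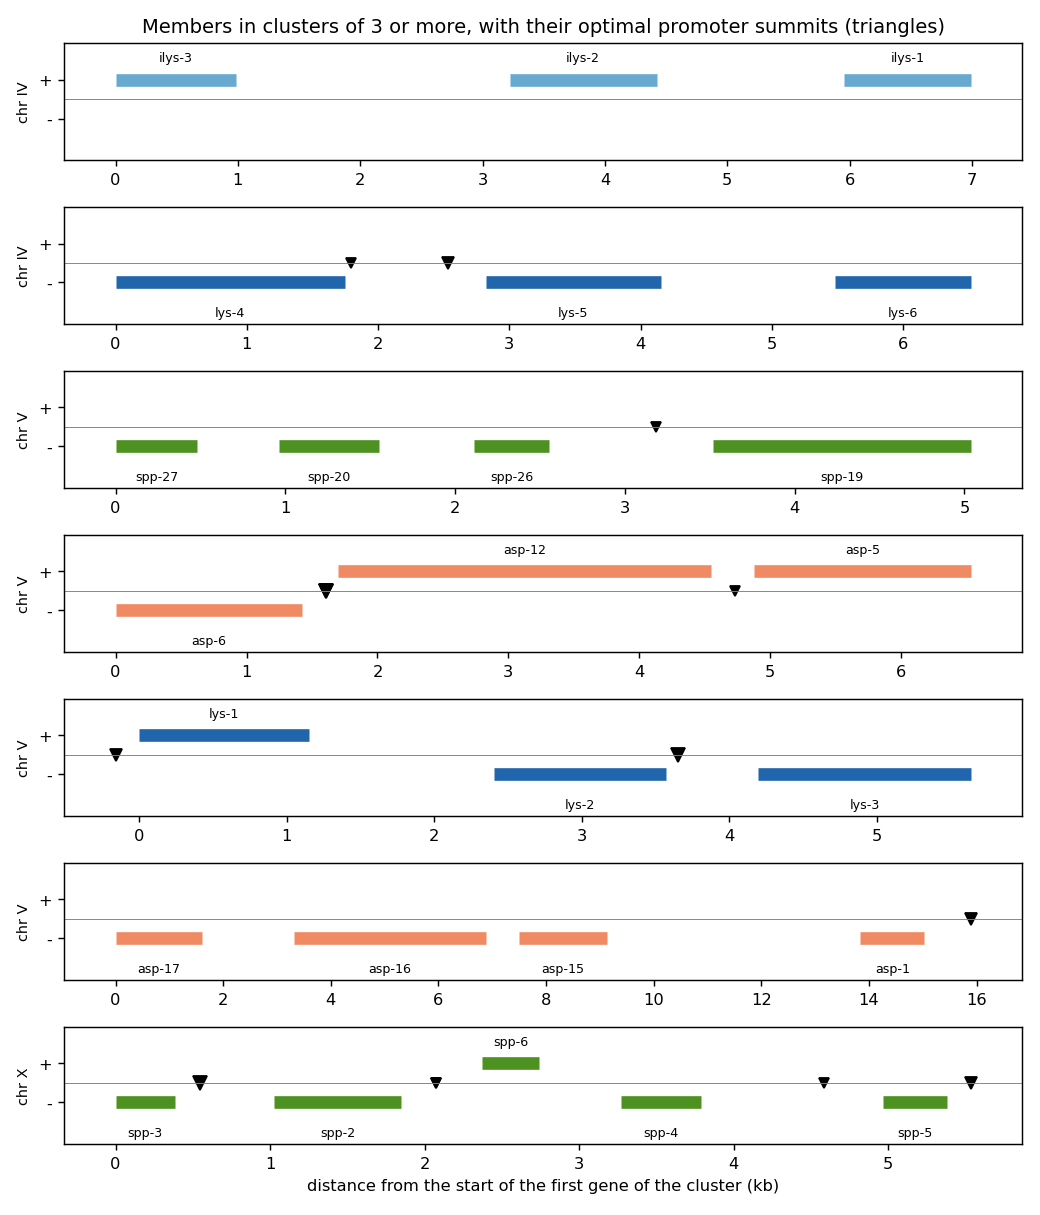
Gene clusters with 3 or more members, drawn to scale within each panel in kb from the start of the leftmost gene; bars are gene bodies coloured by family (ilys light blue, lys blue, spp green, asp orange), drawn above the line for the plus strand and below it for the minus strand. Black triangles are optimal promoter summits of the members, larger with higher signal; the spp-2 to spp-6 panel has summits for all 5 genes and the ilys panel has none.

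Reads from near-identical copies can fail to map to 1 place. All 30 members with a summit and 36 of the 42 without had promoters in which at least 90% of the 36-base words occurred once in the genome, against 87.0% of all protein-coding promoters. The 6 below were lys-10 (62.8%), lys-3 (68.7%), spp-17 (81.5%), spp-21 (81.6%), asp-17 (83.4%) and spp-24 (86.2%). For these genes the part of this in the lack of a region was not tested, and the read length and mapping rules behind these lists are not known here.

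Other genes of the same pathways differed by kind, in lists drawn up with earlier results of these data known, so their counts are a description. Of 23 other protease, protease inhibitor and lysosome genes, 17 had an optimal promoter summit (73.9%), with a median highest signal of 104, against 24.8% and a median of 78.8 in all protein-coding genes. The highest were at gba-2, which encodes a glucosylceramidase-like enzyme (333), hlh-30, the worm relative of TFEB, whose signal lay between those of gba-2 and cpz-1, and then cpz-1 (193) and cpz-2 (150), both cathepsin Z-like. Among the 29 genes of the abf, cnc, thn and fip families of antimicrobial effectors, 2 had one (6.90%, against 24.8% of all protein-coding genes), at fip-4 (138) and thn-1 (53.4). Of 13 regulators of intestinal expression and immunity, 10 had one (76.9%, against the same 24.8%), led by the bZIP gene zip-2 (490.3), skn-1 (357), the GATA factor gene elt-2 (213) and hlh-30. The region of zip-2 lay in the promoter of ceeh-1 as well, and that of cpz-2 in the promoter of ifbp-1.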

How the data were processed

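Regions were called by the authors on each replicate and on the pooled alignments against a control alignment, keeping weak background regions as input for IDR, per the deposited file descriptions. Neither the caller nor the cutoff used for IDR is given in the sources used here. The deposited signal values have no stated scale. The deposited −log10 q values reach a ceiling of 4.32 in the pooled list, shared by 10560 regions and all 8745 optimal ones, so regions were ranked by signal. In 68.6% of optimal regions the summit is the midpoint, and of the 30 member summits 13 lie off the midpoint. Distances and motif windows were measured from these positions. In 1 optimal entry the summit offset lay past the end and was set to the last base. Lists on ce11 were used with Ensembl release 115 genes and the RefSeq WBcel235 sequence, and no optimal region passed a chromosome end.

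TSSs came from protein-coding transcripts. Each optimal summit was matched to the replicate region of highest signal over it. Motifs were counted within 50 bp of summits. A promoter's uniqueness is the share of its 36-base words found once on both strands. Python 3.11.15, numpy 2.4.6, pandas 2.3.3 and scipy 1.17.1 were used, and the steps were tested on made-up data. The members, lists and motifs were chosen with earlier results of these data known. Every member with an optimal summit was named, with position and replicate values for those of the 8 highest signals, members without one were listed by family with the values of any pooled region at the maximal −log10 q, and pathway genes were named only where among the 4 highest of a list with a summit. The single group of 2 replicates allows no test between groups, so none was made. Alternatives changed the promoter window, gene assignment, region set, overlap rule, replicates and motif window. A planned description of protein length and identity was not run.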

Additional observations from a re-analysis of the deposited data

How the results depend on the processing

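No paired analysis was possible because there is 1 group. Across the 8 alternatives to region set, window, assignment and replicates, 19 of the 30 members kept their promoter summit in every one. All 5 cpr and all 4 lys members were among them. The wider window, any overlap of the region and all pooled regions at the maximal −log10 q take in every summit of the main rule. None could therefore be lost in those settings. The same count over all genes is not given here, so 19 of 30 only describes these members. Counts moved by over 1.5 times only for spp genes (5 of 31 in the 4372 optimal regions of highest signal, where all genes were at 13.7%) and for ilys genes (3 of 6 with a window of 2000 bp upstream to 500 bp downstream, 1 of 6 with all pooled regions at the maximal −log10 q and 1 of 6 by any overlap of the region, from 0). With 500 bp upstream to 100 bp downstream, asp-1, asp-3, spp-4, spp-26 and spp-31 lost their summit. The cpr median rested on the stronger cpr-9 region, since it was 103 with that narrow window and 103 with the nearest TSS only, in both of which cpr-9 keeps its weaker summit alone. It was 167 with the wide window, where cpr-8 is added. The spp median was 83.9 with the narrow window. From 1 replicate alone, on that list's own scale, the median ranged from 80.2 to 151 in cpr, 32.7 to 64.7 in asp, 32.7 to 93.6 in lys and 27.0 to 40.2 in spp genes, against 31.3 in all genes without replicate 1 and 49.2 without replicate 2. The TGATAA share was 50% within 25 bp and 93.3% within 100 bp. Unknown read depth limits what the absence of a region can show.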

Other observations

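The gap was measured from the gene upstream to the next protein-coding gene, skipping any gene that overlaps its start. The median gap was 1226.5 bp in the 30 members with a summit and 1017 bp in the 42 without. In all protein-coding genes it was 1038 bp with a summit and 1201 bp without.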
